A study of Mus musculus with 2 samples.

Results

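The 10 genes described here code for the enzymes and the oxygen store of muscle energy supply. They are 4 creatine kinase genes (Ckm, Ckb, Ckmt2, Ckmt1), 5 genes of glycogen breakdown and glycolysis (Pygm, Pfkm, Pgam2, Eno3, Eno1) and the myoglobin gene Mb. They were chosen by symbol, and all 10 were found once each among the 25906 genes of both count matrices. A list of 44 further genes of these pathways is given as counts, with values for a few.

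Creatine kinase moves a phosphate between ATP and creatine, so that a contracting fibre can refill its ATP at once. The cytosolic enzyme pairs M and B subunits, and developing muscle is known to exchange the B form (Ckb), shared with brain and many embryonic cells, for the M form (Ckm) while it assembles sarcomeres. Several glycolytic enzymes make a similar exchange, in which a form found in most tissues gives way to a muscle form: enolase from Eno1 to Eno3, phosphoglycerate mutase from Pgam1 to Pgam2, and glycogen phosphorylase to Pygm.

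RNA was measured by droplet 3′ tag sequencing in cultures of induced myogenic progenitor cells, which are mouse embryonic fibroblasts turned into a self-renewing, muscle-forming culture. The MyoD-WT library came from 1 clone and the MyoD-KO library from another. Both carried the strain label Myod1tm1Jae, both clones were derived through overexpression of the transcription factor Myf6 (per the design text they had become independent of it), and both were at passage 4. The same additives were in the medium of both: bFGF (10 ng/mL), CHIR99021 (3 µM), and 5 µM each of RepSox and forskolin. Each library was started from 12000 cells. With 1 library per genotype, a difference between the libraries has no replicate check, and genotype, clone and library preparation cannot be told apart. Every interval printed is a 95% interval of counting error only.

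The kept cells numbered 7316 in WT, with a median of 35515.5 unique transcript counts (UMIs), and 5638 in KO, with a median of 40426.5. The libraries shared 9 kept barcodes. Myod1, the targeted gene, stood at 162 CPM (counts per 1000000 UMIs) in the WT library against 63.3 in the KO library. A 3′ tag may lie outside a deleted part, so this level checks nothing about the allele. Marker lists of cardiac, neural, fat, endothelial and blood cells summed to at most 16.5 CPM each in Pax7+, Myog+, muscle-rich and neither-factor cells.

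Cells were grouped one by one on marker genes, without clustering. Muscle-rich cells had at least 2% of their UMIs from 19 sarcomere genes, none of which is a gene described here. The other cells were sorted by Pax7, the transcription factor of muscle progenitors, and Myog, the factor of committed myocytes, each counted as present from 3 UMIs. Pax7+ cells were 3507 in WT and 2500 in KO (47.9% and 44.3% of kept cells), and cells with both factors were 626 and 557. Myog+ cells were 819 and 728, muscle-rich cells 1218 and 1085, and cells with neither factor 1146 and 768. Muscle-rich cells were split by the fast myosin genes Myh1 and Myh4. In WT 1021 had at least 3 UMIs of the pair and 197 had fewer, against 933 and 152 in KO. The KO cells without the pair were shallow, with a median of 4946 UMIs against 51287 in those with it, so this gate partly sorted the KO cells by depth. The sarcomere share is continuous, and 149 WT and 49 KO cells lay between 1.5% and 2.5%.

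The 250 bases before the RefSeq transcription start (GRCm38.p6, the build of the reference table, which differs from that of the counts) are shown for the muscle creatine kinase, the brain creatine kinase and the muscle mutase, because these 3 stand for the patterns below. Ckm and Pgam2 are genes that came up almost wholly with the sarcomere, and Ckb is the one with its highest group value in Myog+ cells. Capitals mark E-boxes (CANNTG, the core that myogenic bHLH factors recognise, which reads alike on both strands) and matches to the MEF2 site on either strand. Ckm lies on the plus strand at chr7:19410844-19411093. Ckb lies on the minus strand at chr12:111672339-111672588. Pgam2 lies on the minus strand at chr11:5803797-5804046.
Ckm: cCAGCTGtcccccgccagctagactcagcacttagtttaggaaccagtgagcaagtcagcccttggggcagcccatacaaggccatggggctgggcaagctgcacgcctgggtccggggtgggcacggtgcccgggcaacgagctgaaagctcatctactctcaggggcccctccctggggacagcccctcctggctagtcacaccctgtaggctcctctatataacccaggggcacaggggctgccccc
Ckb: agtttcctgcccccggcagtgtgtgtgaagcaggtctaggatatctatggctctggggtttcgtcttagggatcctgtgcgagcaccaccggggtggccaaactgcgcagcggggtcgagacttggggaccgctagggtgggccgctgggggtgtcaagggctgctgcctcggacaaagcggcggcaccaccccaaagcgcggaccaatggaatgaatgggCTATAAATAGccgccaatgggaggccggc
Pgam2: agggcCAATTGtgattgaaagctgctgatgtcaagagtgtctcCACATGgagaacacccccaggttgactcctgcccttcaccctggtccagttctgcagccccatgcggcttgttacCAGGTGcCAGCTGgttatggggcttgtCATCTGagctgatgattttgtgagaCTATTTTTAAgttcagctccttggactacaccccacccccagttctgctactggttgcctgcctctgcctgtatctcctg

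The Ckm window held 1 E-box, of the form CAGCTG, the Ckb window held 0, and the Pgam2 window held 5. Of 32851 mouse promoter windows of this length, 66.2% held at least 1 E-box, 3.84% held 4 or more and 13.0% held CAGCTG, which is one of the forms of CANNTG. A MEF2 match stood in the Ckb and Pgam2 windows and in 2.92% of all windows. Among the other genes with 1 listed start, Pygm had 2 E-boxes, both CAGCTG, Ckmt2 had 4, of which 1 was CAGCTG, and Eno3 had 1. Eno1, Pfkm, Mb and Ckmt1 have several starts each and are not compared on this. These matches describe letters in a short window. They show neither a bound site nor a cause.

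In cytosolic creatine kinase, the brain gene came first and the muscle gene followed. In WT, Ckm (ENSMUSG00000030399) was at 2.18 CPM in Pax7+ cells, 7.77 in cells with both factors, 14.2 in Myog+ cells, 191 in muscle-rich cells without Myh1/Myh4 and 167 in those with them. In KO the same groups had 12.9, 12.7, 37.9, 1238 and 959 CPM. Ckm was thus lowest in Pax7+ or double-positive cells and many times higher in both muscle-rich groups of each library. In KO its intervals in Pax7+ (12.3 to 13.7), double-positive (11.4 to 14.0) and neither-factor cells (14.4 CPM, 13.0 to 15.9) overlapped.

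Ckb (ENSMUSG00000001270) took another course. In WT it was at 41.9 CPM in Pax7+ cells, 63.1 in cells with both factors, 162 in Myog+ cells, 94.97 in muscle-rich cells without Myh1/Myh4 and 83.9 in those with them. In KO these groups had 108, 168, 1026, 931 and 522 CPM. Its highest value stood in Myog+ cells in both libraries. From Pax7+ to Myog+ cells Ckb was 3.86-fold higher in WT (3.71 to 4.02) and 9.48-fold higher in KO (9.28 to 9.69). From Myog+ to muscle-rich cells the ratio was 0.524 in WT and 0.516 in KO, just short of the 2-fold used here to call a gene lower. The median log2 ratio of all genes past 10 CPM in this comparison was -0.32 in WT and -0.41 in KO, against -0.93 and -0.95 for Ckb. With TMM scaling (trimmed mean of M values, which centres most genes on 0) the Ckb values were -0.65 and -0.62, so its direction held.

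**Figure D1:**
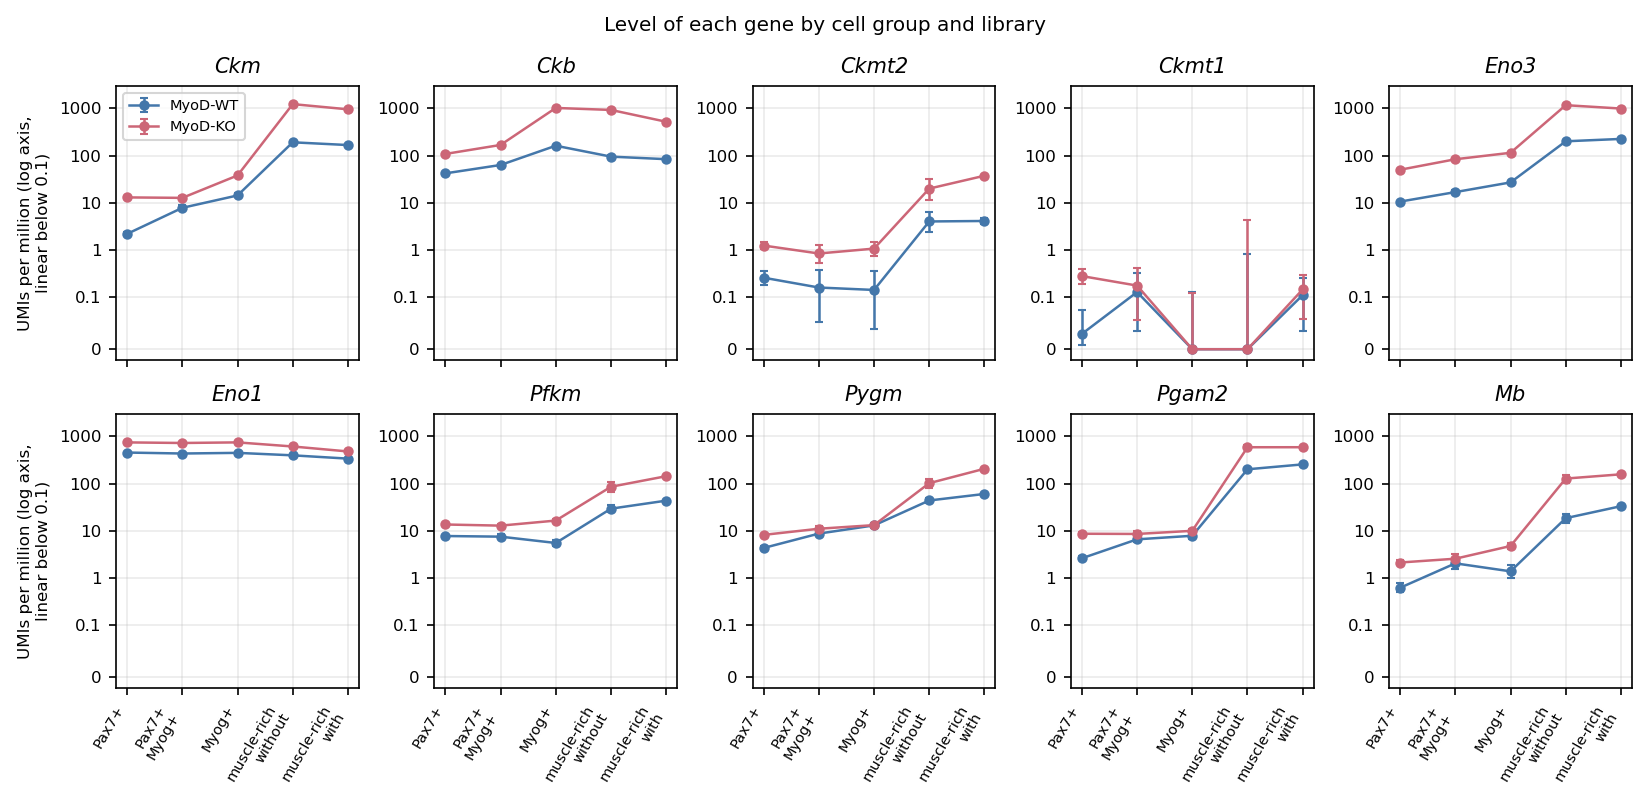
Level of each of the 10 genes in CPM (log axis, linear below 0.1) in 5 cell groups of the MyoD-WT (blue) and MyoD-KO (red) library; bars are 95% counting intervals, and with and without refer to Myh1/Myh4. Ckb peaks in Myog+ cells, Eno1 varies little, Ckmt1 stays below 0.3, and the other genes are highest in the muscle-rich groups.

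The exchange of subunits can be read as the share of Ckm in the UMIs of Ckm plus Ckb. In WT it was 4.93% in Pax7+ cells, 8.09% in Myog+ cells and 66.6% in muscle-rich cells (65.8 to 67.5). In KO it was 10.7%, 3.56% and 64.6% (64.2 to 64.9). The KO share was lower in Myog+ than in Pax7+ cells although Ckm was higher there, as Ckb stood at 1026 against 108 CPM. The Pax7+ share rests on Ckm levels no higher than in cells with neither factor (whose share was 14.8% in KO), so no fall from Pax7+ to Myog+ cells is read from it. Taken as a whole, the kept muscle-rich cells of the 2 libraries had nearly the same share, from sums of Ckm and Ckb that differed greatly, 254 CPM in WT and 1493 CPM in KO. Over all deposited barcodes the order was the other way, 68.6% in WT and 71.64% in KO, so the order depends on the filter. Among kept cells the shares differed more within bins of sarcomere content, given next.

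Along the sarcomere content of single cells the exchange was gradual. Cells were binned by the percent of their UMIs from the sarcomere list, from under 0.5% to between 10% and 20%. The Ckm share in WT went through 4.18%, 8.34%, 23.2%, 48.9% and 73.8% to 93.4%. In KO it went through 6.07%, 4.82%, 7.74%, 21.9% and 62.8% to 83.9%. Ckm passed Ckb between 2% and 10% sarcomere content in both libraries, and in each of the 5 bins above 0.5% the KO share was the lower one. Ckb was highest in the WT bin from 0.5% to 1%, at 170 CPM in 290 cells, and in the KO bin from 1% to 2%, at 1884 CPM in 91 cells. From there to the bin of 10% to 20% it was lower in every bin, ending at 24.6 CPM (WT) and 274 CPM (KO). Ckm was higher in every successive bin, from 2.42 to 350 CPM in WT and from 12.6 to 1425 CPM in KO. A further KO bin above 20% held 5 cells and is not compared. The WT bins held 125 to 5598 cells and the KO bins 91 to 4318.

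**Figure D2:**
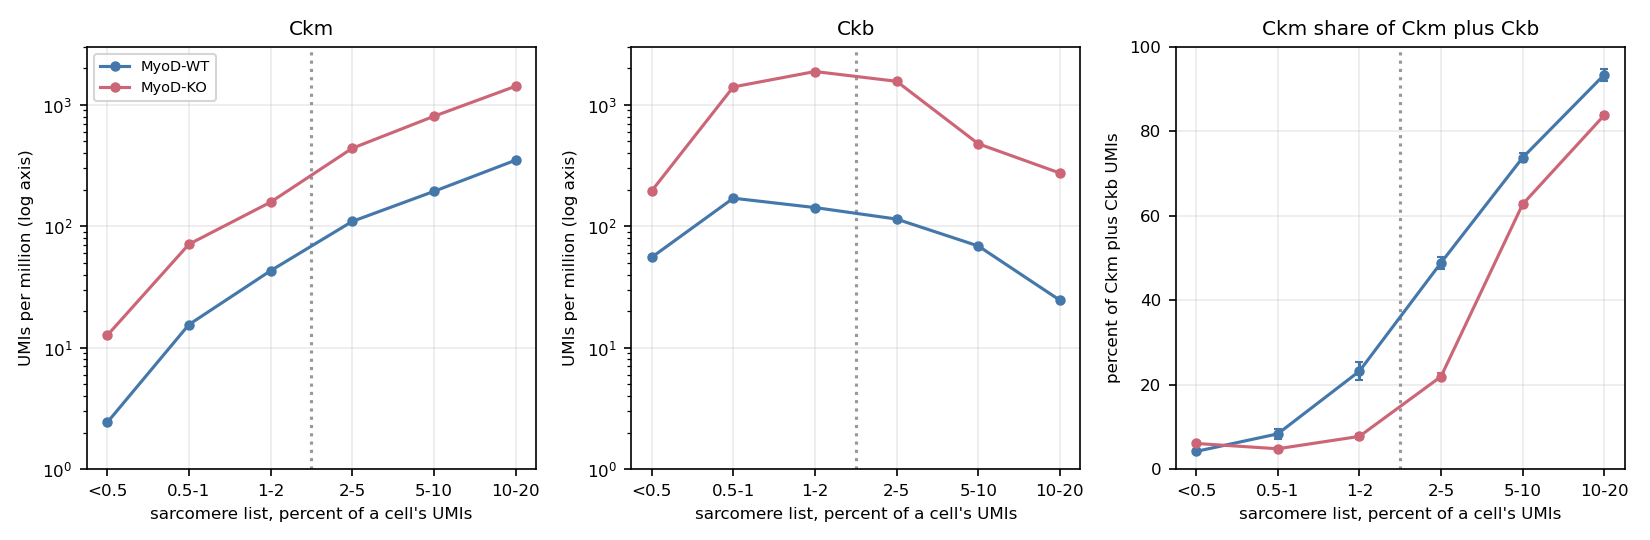
Ckm and Ckb in CPM (log axes) and the Ckm share of both in percent, by the percent of a cell's UMIs from 19 sarcomere genes, in MyoD-WT (blue) and MyoD-KO (red); the dotted line is the 2% limit of muscle-rich cells and bars on the share are 95% Clopper-Pearson intervals. Ckm climbs through all bins, Ckb turns down from its peak between 0.5% and 2%, and the KO share lags behind the WT share from 0.5% on.

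Single muscle-rich cells often held both genes. Among muscle-rich cells with at least 10 UMIs of the pair, Ckm exceeded Ckb in 306 of 446 WT cells (68.6%, 64.1 to 72.9) and in 690 of 890 KO cells (77.5%, 74.6 to 80.2). Both genes had at least 3 UMIs in 45.3% of these WT cells and 79.4% of these KO cells, with the KO cells also having more UMIs of the pair. In cells with both factors the order was opposite, 14.5% in WT and 6.25% in KO, and in Myog+ cells the shares were 20.4% and 22.3%. In Myog+ cells Ckm exceeded Ckb in 3 of 157 WT and 1 of 516 KO cells. These shares of cells were not thinned to one depth, and the cells of 1 library are not replicates.

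Mitochondrial creatine kinase was carried by the sarcomeric gene. Ckmt2 (ENSMUSG00000021622) was at 0.256 CPM in WT Pax7+ cells, 0.140 in Myog+ cells and 4.08 in muscle-rich cells, and at 1.23, 1.06 and 37.0 CPM in KO. It reached 10 CPM in 2 of 12 groups, both of them KO muscle-rich. Ckmt1, the form of most other tissues, had 16 UMIs in all kept WT cells and 47 in KO. It was at most 0.277 CPM in any group and at 0 in Myog+ cells of both libraries, where a count of 0, taken as at most 3 counts of the total, allows up to 0.105 CPM in WT and 0.0963 in KO.

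Of Eno3 and Eno1, the muscle and the widespread enolase, Eno3 had a larger share in muscle-rich than in Pax7+ cells. Eno3 (ENSMUSG00000060600) in WT Pax7+, Myog+ and muscle-rich cells stood at 10.5, 26.9 and 224 CPM, and the KO values were 50.03, 115 and 999 CPM. For Eno1 (ENSMUSG00000063524) the WT values were 455, 448 and 343 CPM and the KO values 748, 748 and 483 CPM. Over the muscle-rich cells as a whole, Eno3 was the major form in KO, with 67.4% of both (67.1 to 67.8). It was the minor form in WT, with 39.4% (38.9 to 40.0). Among the WT bins of sarcomere content, Eno3 exceeded Eno1 only in the bin of 10% to 20% (125 cells), at 380 against 305 CPM. Eno1 shares 32.2% of the 90-base words at its 3′ end with Eno1b and with pseudogene copies, so its counts may be split or lost and are uncertain. On the WT scale of CPM Eno1 was 0.754 times as high in muscle-rich as in Pax7+ cells, and with TMM scaling its log2 ratio was 0.02 in place of -0.41, so no direction is read from it in WT. In KO its log2 ratio was -0.63, against a median of -0.53 over all genes, and it was not called lower.

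Pgam2 (ENSMUSG00000020475), the muscle mutase of late glycolysis, had the steepest course in WT. It was at 2.59 CPM in Pax7+ cells, 7.79 in Myog+ cells and 250 in muscle-rich cells, with KO values of 8.60, 9.92 and 590 CPM. Its share of Pgam2 plus Pgam1 went from 0.677% to 2.27% and 59.5% in WT and from 1.48% to 1.73% and 64.9% in KO. Commitment with Myog alone thus left the mutase almost wholly in the Pgam1 form in both libraries, although Ckb had its highest group value in the same cells.

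Pygm, the phosphorylase that opens glycogen, and Pfkm, the kinase that commits sugar to glycolysis, were also highest in muscle-rich cells, but differed in Myog+ cells. Pygm (ENSMUSG00000032648) had 4.29, 12.9 and 58.7 CPM in WT Pax7+, Myog+ and muscle-rich cells, against 8.13, 13.1 and 204 CPM in the same KO groups. It was 30.6% of all phosphorylase UMIs in WT Pax7+ cells, 76.4% in Myog+ cells and 95.2% in muscle-rich cells, and 37.5%, 73.1% and 97.6% in KO. The Pygm share was thus already large in Myog+ cells. The phosphorylase sum was 14.0 CPM in Pax7+ and 16.9 in Myog+ cells of WT, and 21.7 and 17.9 in KO. In KO the Pygm ratio of Myog+ over Pax7+ cells was 1.61 and not called, so its share there also reflects lower partner levels. Pfkm (ENSMUSG00000033065) had 7.69, 5.47 and 42.1 CPM in these WT groups, against 13.5, 16.4 and 142 CPM in the KO groups. Its WT level was thus lowest in Myog+ cells, where that of Pygm was 3.02 times its Pax7+ level. Its share of the 3 phosphofructokinase genes ended near the middle, at 49.5% in WT and 47.2% in KO muscle-rich cells. Pfkm overlaps another annotated gene on its own strand, with 6.05% of its 3′ words shared, and Ckb shares 6.16% with a pseudogene.

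Mb (ENSMUSG00000018893), which stores oxygen, had 0.613, 1.37 and 31.8 CPM in WT Pax7+, Myog+ and muscle-rich cells, against 2.11, 4.72 and 157 CPM in KO cells. Its level stayed under 5 CPM in every group outside the muscle-rich cells.

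**Figure D3:**
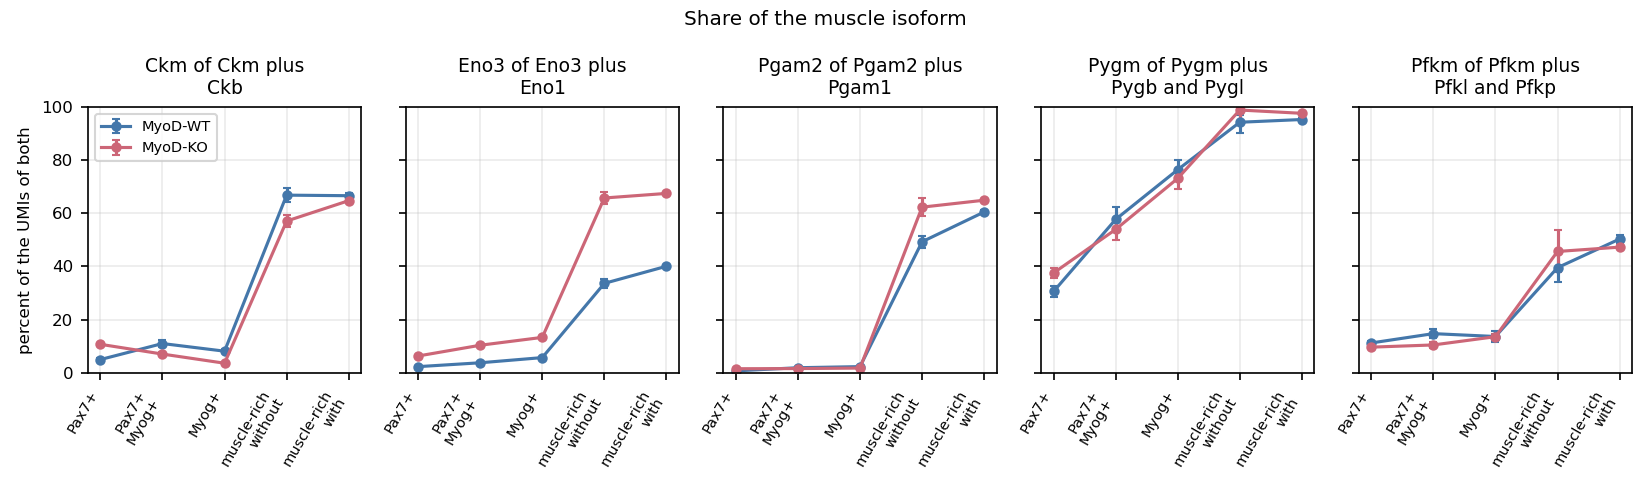
Share of the muscle form in percent of the UMIs of the muscle form and its partners, for 5 enzymes in 5 cell groups of MyoD-WT (blue) and MyoD-KO (red), with 95% Clopper-Pearson bars; with and without refer to Myh1/Myh4. Pygm is ahead of the other forms in Myog+ cells, and Eno3 separates the libraries in muscle-rich cells taken as a whole, at 39.4% in WT and 67.4% in KO.

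A gene was called higher or lower where the ratio was at least 2-fold and the higher group had at least 10 CPM. In any comparison, a gene under 10 CPM in 1 group could pass only through the other group and be called only in that direction. Between muscle-rich and Pax7+ cells, 7 of the 8 genes past 10 CPM were called higher in WT (Ckm, Ckb, Eno3, Pfkm, Pygm, Pgam2, Mb) and 8 of 9 in KO, Ckmt2 being the added one. Of all genes past 10 CPM, 12.4% were called higher in WT and 11.7% in KO. No gene of the 10 was called lower, against 27.9% and 33.0% of all genes. The median log2 ratio of the genes that passed was 4.09 in WT and 4.65 in KO, against -0.48 and -0.53 over all genes, and a gene low in Pax7+ cells could pass 10 CPM only through the muscle-rich side. TMM scaling moved the medians over all genes to -0.02 and -0.08 and left the 7 and 8 calls in number. In WT the ratio was 77.9 for Ckm (69.4 to 87.8), 96.6 for Pgam2, 51.8 for Mb and 2.02 for Ckb. In KO it was 74.5 for Ckm (70.6 to 78.7), 68.7 for Pgam2, 74.3 for Mb and 4.89 for Ckb. Ckm, Pgam2 and Mb were each no higher in Pax7+ cells than in cells with neither factor, in both libraries (Pgam2 2.59 against 4.34 CPM in WT). The same held for Eno1, at 455 against 506 CPM in WT and 748 against 791 in KO. This comparison therefore cannot show a background level. The size of the Ckm, Pgam2 and Mb ratios rests on low levels in Pax7+ cells, whose background part was not tested. The Ckb call in WT stood at the limit: its log2 ratio of 1.02 was 0.61 when muscle-rich began at 5% sarcomere UMIs and ranged up to 1.45 with TMM scaling.

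Myog+ cells differed less from Pax7+ cells. In WT, Ckm, Ckb, Eno3 and Pygm were called higher, 4 of the 5 genes past 10 CPM, where 5.33% of all genes were. In KO it was 3 of 6, Ckm, Ckb and Eno3, where 5.65% of all genes were. None was called lower (0 in each library), against 7.19% of all genes in WT and 10.9% in KO. In WT, Ckm and Pygm were at 2.18 and 4.29 CPM in Pax7+ cells and passed 10 CPM only through Myog+ cells. The Ckm ratio was 6.55 in WT (5.62 to 7.63) and 2.92 in KO (2.70 to 3.17), the Eno3 ratio 2.56 and 2.29. From Myog+ to muscle-rich cells 6 of 8 were called higher in WT and 7 of 9 in KO, where 10.9% and 11.8% of all genes were. The genes not called were Ckb and Eno1 in both libraries, and 0 were called lower, against 15.9% and 26.5% of all genes.

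In the muscle-rich cells 8 of the 9 genes past 10 CPM were called higher in KO than in WT, where 10.8% of all genes were called higher, and 0 were called lower, against 6.73%. Ckmt2 had the greatest ratio, at 9.08 (7.86 to 10.5), but passed 10 CPM only through KO (37.0 against 4.08 CPM). Ckb followed at 6.24 (6.04 to 6.45) and Ckm at 5.69 (5.56 to 5.82), then Mb at 4.93 and Eno3 at 4.47. Pygm was at 3.48, Pfkm at 3.38 and Pgam2 at 2.36. Eno1, at 1.41, was the one not called. Over the muscle-rich cells as a whole, both forms of cytosolic creatine kinase were thus higher in KO by a like factor. Of the enolases the muscle form differed far more than the widespread one. In the sarcomere bins of 2% to 5%, 5% to 10% and 10% to 20%, the creatine kinase factors were not alike. The Ckb ratio was 13.6, 6.95 and 11.2 there, and the Ckm ratio 4.01, 4.16 and 4.07. The KO muscle-rich cells also had 8.76% sarcomere UMIs against 5.92% in WT, 3095 against 432 CPM of Myh1 plus Myh4, and 10.2% against 8.22% mitochondrial UMIs. Their summed fibroblast markers were 105 against 15.4 CPM (2 of 8 genes at 10 CPM or more in KO and 1 in WT, with Lum at 0 in both and Col1a1 at 0 in WT), and the smooth muscle list was 815 against 2156 CPM, mostly Acta2. The part of these in the ratios was not tested, apart from the bins that follow.

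Within the same bins of sarcomere content the KO values stayed above WT for most genes. Over the 6 bins up to 20%, the KO over WT ratio lay between 3.67 and 5.22 for Ckm and between 3.52 and 13.6 for Ckb. It lay between 3.31 and 5.55 for Eno3, between 1.18 and 2.81 for Pygm and between 1.42 and 1.78 for Eno1. Pgam2 went from 2.90 and 3.18 in the lowest bins to 0.964 and 1.09 in the bins from 1% to 5%, then 1.55 and 1.42. From 1% to 5% sarcomere content Pgam2 was thus at like levels in both libraries, 28.8 (WT) and 27.8 CPM (KO) in the lower bin. The Ckm ratios from 1% up, 3.67 to 4.16, were below the 5.69 of the muscle-rich cells as a group.

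Outside the muscle-rich cells fewer genes were called. In Pax7+ cells 3 of 5 were called higher in KO (Ckm, Ckb, Eno3), where 13.9% of all genes were. In cells with both factors it was 2 of 6 (Ckb, Eno3), with 13.7% of all genes, and in Myog+ cells 4 of 6 (Ckm, Ckb, Eno3, Pfkm), with 11.8%. In cells with neither factor it was 2 of 5 (Ckm, Eno3), with 18.3% of all genes. In Pax7+ and neither-factor cells Ckm passed 10 CPM only through KO (2.18 and 3.55 CPM in WT). So did Pfkm in Myog+ cells (5.47 CPM in WT). In these 4 groups 0 were called lower, against 4.19%, 4.06%, 3.93% and 7.23% of all genes. Eno3 was the one gene called in each of these groups, with ratios of 4.75 (4.48 to 5.03) in Pax7+, 4.98 in double-positive, 4.25 in Myog+ and 3.77 in neither-factor cells. Eno1 lay between 1.42 and 1.67 in these groups and in muscle-rich cells with and without Myh1/Myh4, and was not called in any of them, except with TMM scaling in those without (log2 1.03). Ckb ranged from 1.08 in cells with neither factor to 6.34 in Myog+ cells and 9.80 in muscle-rich cells without Myh1/Myh4.

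Ckm in Pax7+ cells was no higher than in cells with neither factor, and a background level was not measured. After each cell was thinned to 5000 UMIs, Ckm was found in 6.44% of KO Pax7+ cells (5.51 to 7.47) and in 6.87% of KO cells with neither factor, whose median depths before thinning were 39065.5 and 34158 UMIs. In WT the shares were 1.17% and 1.46%, and without thinning the Pax7+ shares were 39.0% in KO and 8.13% in WT. Muscle-rich cells had 90.4% in KO and 43.7% in WT. Ckm per 1000 sarcomere UMIs was 11.3 in KO Pax7+ and 11 in KO muscle-rich cells, against 1.67 and 2.86 in WT. The 5.95-fold KO over WT value of Ckm in Pax7+ cells is not read as expression there, and its source was not tested. Eno3 was at 43.8 per 1000 sarcomere UMIs in KO Pax7+ cells against 11.4 in muscle-rich cells, and Ckb at 94.7 against 6.04. The fibroblast list summed to 850 CPM in KO Pax7+ cells (3 of 8 genes at 10 CPM or more) and 96.0 CPM in WT (1 of 8, with Lum at 0), and its part in the Ckb and Eno3 values was not tested. In cells with neither factor the list summed to 1732 CPM in KO (5 of 8) and 139 CPM in WT (2 of 8).

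**Figure D4:**
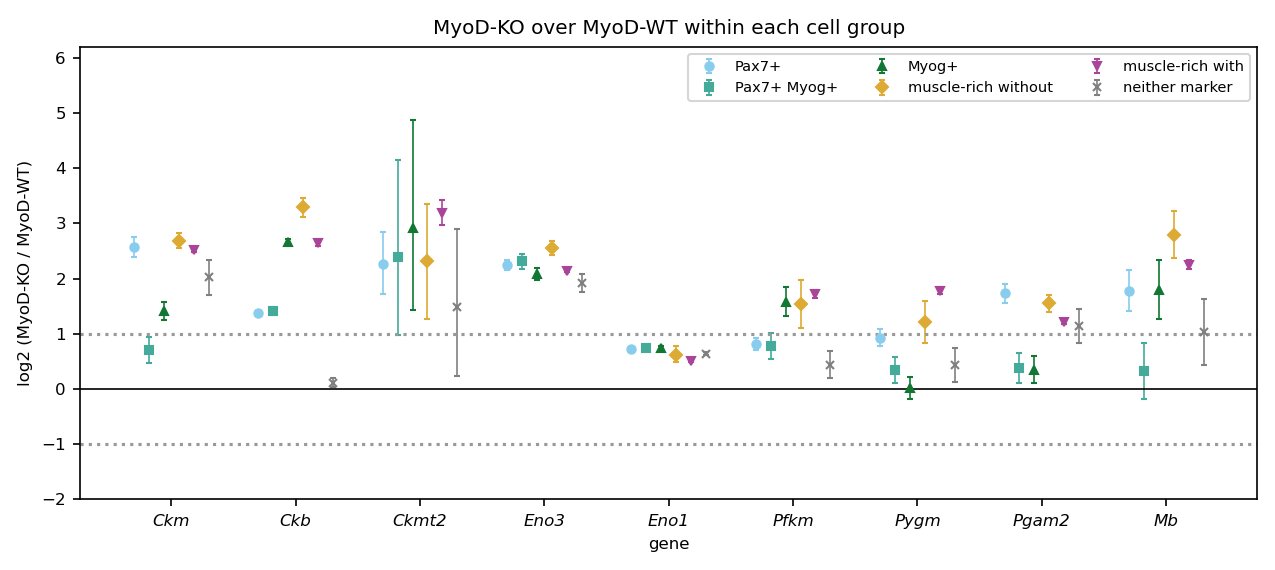
log2 of the MyoD-KO over MyoD-WT ratio for 9 genes (Ckmt1 has too few UMIs) in 6 cell groups, with 95% counting intervals; dotted lines mark a 2-fold ratio, and with and without refer to Myh1/Myh4. Eno3 is above the upper line in all groups, Eno1 below it in all, and Ckb runs from 0.11 in cells with neither factor to 3.29 in muscle-rich cells without Myh1/Myh4.

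The split at 3 UMIs of Myh1 plus Myh4 gave few calls, and bins of their level gave wider differences. In WT 0 of 8 genes past 10 CPM were called between cells with and without Myh1/Myh4, where 0.36% of all genes were called higher and 0.221% lower. Mb was nearest, at 33.1 against 18.4 CPM, a ratio of 1.80 (1.44 to 2.27), then Pfkm at 1.48 and Pygm at 1.38. Ckm was at 0.875 and Ckb at 0.883. Their log2 ratios, -0.19 and -0.18, changed sign under 2 and 3 of the other settings tried, and no direction is read from them. In KO 1 of 9 was called higher, Pygm at 206 against 102 CPM, a ratio of 2.02 (1.64 to 2.53). There 47.9% of all genes were called higher and 0.691% lower. Of those KO cells, 144 of the 152 without the pair had under 10000 UMIs, and their mitochondrial share was 1.49% against 10.3%. Ckb was at 522 against 931 CPM, a ratio of 0.561 (0.523 to 0.603), which is -0.83 on the log2 scale against a median of 0.92 over all genes. With TMM scaling the Pygm call was lost (log2 0.54 in place of 1.02) and Ckb was called lower (log2 -1.31). In cells of at least 10000 UMIs, of which 8 were without the pair, 3 genes were called higher in place of 1. Between KO and WT cells without the pair, 8 of 9 genes were called higher, as were 8 of 9 between cells with it, with 8.34% and 10.7% of all genes called higher. In both, 0 were called lower, against 46.4% and 6.62% of all genes.

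A finer view used the muscle-rich cells with at least 10000 UMIs, in bins of Myh1 plus Myh4 level that were set after the data were seen. In WT, Pygm went from 35.9 CPM in cells under 100 CPM of the myosins to 43.7, 58.4 and 134 CPM in the bins up to 3000 CPM. Pgam2 went from 148 to 189, 272 and 505 CPM in the same bins, and Mb from 20.9 to 64.2 CPM. Ckm was flat at 161, 148 and 150 CPM up to 1000 CPM of the myosins and stood at 310 CPM in the bin above. These 4 bins held 113 to 462 WT cells, and the muscle glycolytic genes were higher with each step while Ckm differed only in the last. In KO, the bins from 100 CPM up held 29, 81, 351 and 387 cells. Pygm went through 93.1, 106 and 180 to 256 CPM and Ckm through 659, 635 and 853 to 1131 CPM. The lowest KO bin held 7 cells and the highest WT bin, above 3000 CPM, 9 cells.

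Within the same bins of myosin level the libraries came closer for some genes. From 100 to 300, 300 to 1000 and 1000 to 3000 CPM of the myosins, the KO over WT ratio of Ckm was 4.46, 4.23 and 2.75, and that of Eno3 4.66, 2.82 and 2.36. That of Pgam2 was 1.63, 1.09 and 1.05. Ckb did not follow: its ratios were 6.44, 5.55 and 10.0. The sarcomere share in these bins was 6.99%, 6.92% and 8.10% in KO and 5.29%, 6.28% and 8.04% in WT. Sarcomere content was thus close in the bin from 1000 to 3000 CPM, where Pgam2 had 528 CPM (KO) against 505 (WT) and Ckb 605 against 60.4. The myosin level of the libraries inside a bin was not compared.

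**Figure D5:**
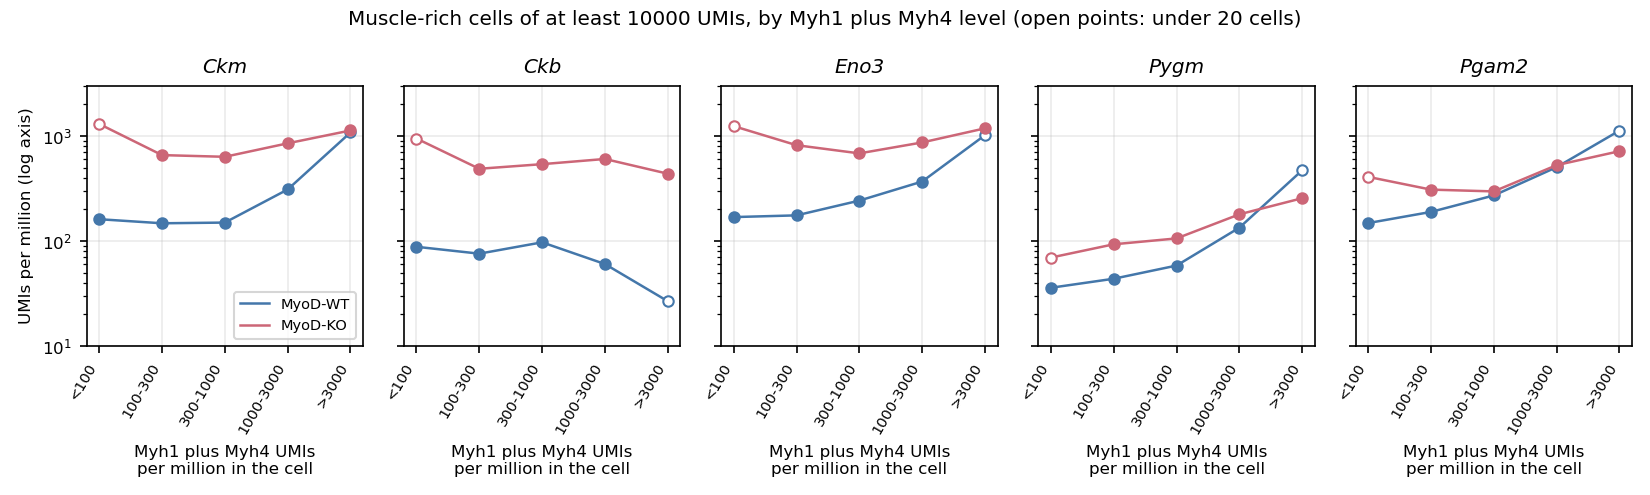
Ckm, Ckb, Eno3, Pygm and Pgam2 in CPM (log axis) in muscle-rich cells of at least 10000 UMIs, by the Myh1 plus Myh4 level of the cell, in MyoD-WT (blue) and MyoD-KO (red); open points are bins of under 20 cells. The Pgam2 lines meet near 1000 CPM of the myosins, and the Ckb lines stay apart in all bins.

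The 44 other genes of the pathways moved with these genes in part. Between muscle-rich and Pax7+ cells 12 of the 34 past 10 CPM were called higher and 5 lower in WT, and 20 of 38 higher and 1 lower in KO. Over all genes 12.4% were called higher and 27.9% lower in WT, and 11.7% and 33.0% in KO. Of the 6 creatine and adenylate genes, 5 were called higher in each library, among them Gatm, which makes the creatine precursor, at 562 against 112 CPM in WT and 328 against 27.3 in KO. The glycogen genes had 5 of 11 called higher in WT and 8 of 11 in KO. The steepest was Ppp1r3a, the muscle glycogen-targeting subunit of a phosphatase, at 17.4 against 0.190 CPM in WT and 14.1 against 0.162 in KO. Of the 19 other glycolysis genes, 1 of 14 was called higher (Aldoa) and 4 lower in WT (Hk1, Pfkfb3, Pgam1, Ldhb), and 6 of 17 higher and 0 lower in KO (Hk2, Aldoa, Tpi1, Gapdh, Eno2, Fbp2). In WT these counts are near the shares over all genes. Their median log2 ratio was -0.48 in WT, the same as over all genes, and 0.49 in KO against -0.53. The difference between the libraries was not tested. Pgam1, the partner of Pgam2, was at 170 against 380 CPM in WT and 320 against 572 in KO. Slc16a1, a lactate carrier, was the lowest in WT, at 12.5 against 53.5 CPM.

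Between the libraries, 19 of 37 of these genes were called higher in KO muscle-rich cells and 2 lower, against 10.8% and 6.73% of all genes. The greatest ratio was that of Fbp2, the muscle fructose bisphosphatase, at 59.3 against 3.20 CPM, 18.5-fold (15.8 to 21.8). The glucose carrier Slc2a1 was at 60.2 against 7.92 CPM and the lactate exporter Slc16a3 at 71.2 against 9.73 CPM. Ampd1, the muscle AMP deaminase, was called lower, at 13.6 against 29.4 CPM, and the ratio of Gatm, 0.584, was not called. Pfkp, a partner of Pfkm, was 6.32-fold higher in KO, above the 3.38 of Pfkm.

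Over the 12 points given by 6 cell groups in 2 libraries, the genes most like Ckm in log2(CPM + 1) were Myoz1 (Pearson r 0.983), Rab40b and Cox19 (both 0.980), Mb (0.980) and Apobec2 (0.977), of 4716 genes ranked. Those most like Ckb were Hspa8 (0.950), Rnf126 (0.949), Amacr (0.910), Timm17a (0.904) and Srp9 (0.901). Among the 10 genes, Eno3, Pygm and Pgam2 each had 0.974 with Ckm, and Ckb had 0.657. The points share libraries and depth, and these values are descriptions with no test.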

How the data were processed

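Per the file headers, Cell Ranger 7.2.0 made the deposited matrices, whose values are raw counts of unique molecular identifiers (UMIs) for each barcode. The submitters' processing notes also list Seurat and the build GRCm39. Barcodes with at least 1000 genes and at most 15% mitochondrial UMIs were kept, and Scrublet calls (scanpy 1.11.5) were removed: 144 in KO, and 2 in WT, too few for the caller to have worked there. UMIs were summed per library and cell group and scaled to CPM; a tag counts transcripts and is not scaled by length. Ratios have exact conditional intervals and shares Clopper-Pearson intervals. With 1 library per genotype no test was made, and a call is a fixed size of ratio. The script was tested on simulated data. The genes and lists were chosen with earlier results of these data known. All 10 genes are named, and of the other pathway genes the 3 largest and 3 smallest ratios per comparison, the isoform partners and the genes that make up a small count. Gatm in the comparison with Pax7+ cells, Pfkp in the comparison of libraries and the bins of Myh1 plus Myh4 were chosen after values were seen. Scaling, filters, gates and the fold were varied. The values of 1 pathway gene are not reported here.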

Additional observations from a re-analysis of the deposited data

Results flagged for a closer look

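Hk2, the hexokinase of muscle, went opposite ways in the libraries: its log2 ratio of muscle-rich over Pax7+ cells was -0.91 in WT (50.7 against 95.02 CPM) and 1.32 in KO (72.1 against 28.9 CPM). The difference was not tested. Barcodes left out by the quality limits also carried Ckm. Muscle-rich barcodes over the mitochondrial limit had 282 CPM of Ckm in WT and 1251 CPM in KO, with Ckm shares of Ckm plus Ckb of 90.5% and 86.7%. They numbered 160 in WT (median 17510.5 UMIs) and 592 in KO (median 41337 UMIs), beside 1218 and 1085 kept muscle-rich cells. The limit thus left out more muscle-rich barcodes in KO than in WT. Muscle-rich barcodes with too few genes had 418 CPM in WT and 1057 CPM in KO. Each of these Ckm levels lies above that of the kept muscle-rich cells, 169.5 CPM in WT and 964 CPM in KO.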

How the results depend on the processing

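Of 323 values of the 23 main results under 16 alternative settings, 289 stayed within their limits and 34 moved. The limit was a 1.5-fold change for a count, and the main counting interval for a share or log2 ratio. Only a log2 ratio could be labelled reversed, and the only one among these results, that of Ckm, was not. Of 1114 values of 95 other log2 ratios of single genes, 765 stayed within their limits and 349 moved. The Ckm share of muscle-rich cells (66.6% in WT, 64.6% in KO) was 68.6% and 71.6% over all deposited barcodes (71.64% in KO), 63.7% in KO without the 6% highest doublet scores, 61.7% and 59.2% from 1% sarcomere UMIs, and 76.8% and 71.6% from 5% (71.61% in KO). The Ckm log2 ratio of KO over WT in these cells, 2.51, was 2.46 without those doublets, 2.59 and 2.28 from 1% and 5% sarcomere UMIs, 2.36 with TMM, 2.60 with a total lacking sarcomere and mitochondrial UMIs and 2.46 as a mean over cells. Between cells with and without Myh1/Myh4, the WT count of 0 higher was 1 from 1% sarcomere UMIs, with no CPM minimum and with a 1.5-fold limit. The KO count of 1 higher was 3 from 1%, with a 1.5-fold limit, in cells of at least 10000 UMIs and with the gate at 100 CPM, 2 with thinned gates, the reduced total and no minimum, and 0 with TMM and as a mean over cells. The KO count of 0 lower was 1 from 5%, with TMM and with a 1.5-fold limit. The KO over WT count was 4 from 1% and 5 with a 1.5-fold limit in double-positive cells, 7 with no minimum and 5 with a 1.5-fold limit in Pax7+ cells, and 2 with a 50 CPM minimum in Myog+ cells. In KO 1 gene was lower in muscle-rich than in Pax7+ cells with a 1.5-fold limit. The cells of at least 10000 UMIs and the gate at 100 CPM were chosen after seeing the data, and the cause of these moves was not tested. No paired analysis was possible because each genotype has 1 library, and no replicate could be left out. Depth limits Ckmt1, Ckmt2 in WT and the KO cells without Myh1/Myh4.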
